A study of Schizosaccharomyces pombe with 4 samples.

Results

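The stretch described here lies at the right end of chromosome II of the fission yeast Schizosaccharomyces pombe, from the 3′ end of the galactokinase gene gal1 to just beyond SPBPB2B2.19c. Its members are the 318 non-control probes, called tiles, that lie 34.05 to 49.96 kb from the end of the tiled chromosome, out of 43993 such probes on the array. The rule that picks them uses position alone, though it was set with earlier results of these data known. The last of them ends at array coordinate 4507510. They are 60 bases long and start every 50 bases. The inner limit is where tiling of this chromosome end begins, and a further 681 tiles cover the outer part, from the other limit to the end.

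Newly made histone H3 carrying a FLAG tag was immunoprecipitated and its DNA hybridised in Cy5 against whole-cell extract DNA in Cy3, with 1 array each for IRD2 clr3D, clr3D, IRD2 and WT cells. All 4 genotypes carried the plasmid pINV1-H3.2-FLAG. They were grown in 8% glucose, held for 4 h in 15 mM hydroxyurea, a drug that blocks DNA replication, and then moved to 4% sucrose with the drug still present for 2 h so that the tagged histone was made. clr3D is read here as the usual notation for a deletion of clr3. IRD2, also written IR-D2 in the labels, is not explained there and is used only as a name. The labels do not say whether the chromosomal H3 genes were intact, so the tagged histone is described as an addition from a plasmid and no more. With 1 array per genotype no difference between genotypes has a replicate error. The SDs given are between tiles of the same arrays, and neighbouring tiles share DNA fragments.

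In fission yeast the gene-poor DNA near the telomeres is packed into silent heterochromatin. Clr3 is a histone deacetylase of the SHREC complex that removes acetyl groups from histone H3 and is known for keeping nucleosomes in place in silent chromatin. Histone made while replication is blocked enters chromatin by exchange, so the ratio of FLAG-H3 DNA to extract DNA is a readout of that exchange. It is given throughout as log2(Cy5/Cy3) minus the median of all probes of the array, so that 0 is the typical probe.

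The stretch holds 7 protein-coding genes and 6 annotated long non-coding RNAs. In array coordinates these genes are gal1 (chr2:4490098-4492071, plus strand, of which 9 tiles cover the 3′ end), SPBPB2B2.14c (chr2:4494380-4495122, minus), SPBPB2B2.15 (chr2:4498173-4498784, plus), SPBPB2B2.16c (chr2:4499737-4501194, minus), ftm7 (chr2:4503756-4504196, minus), SPBPB2B2.18 (chr2:4504492-4505464, plus) and SPBPB2B2.19c (chr2:4505453-4506744, minus). Gene positions come from the RefSeq annotation of assembly ASM294v3, to which 1800 bases were added here, because the files name no build and this shift matched the base composition of the tiles to the extract signal best. gal7 and gal10, the neighbours of gal1 in the galactose pathway, were not analysed here.

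The 300 bases around the annotated start of the genes were read from ASM294v3, with 250 bases before the start in lower case and the first 50 coding bases, beginning at the start codon, in capitals. Among the 6 genes whose start lies in the stretch, the start regions of SPBPB2B2.14c and SPBPB2B2.16c had the highest and the lowest WT ratio, and SPBPB2B2.15 was the gene with the lowest WT ratio over its body. These 3 are shown to let the sequence be read beside those levels, on the strand of the gene, at ASM294v3 chr2:4493273-4493572 (minus), chr2:4496123-4496422 (plus) and chr2:4499345-4499644 (minus).
SPBPB2B2.14c: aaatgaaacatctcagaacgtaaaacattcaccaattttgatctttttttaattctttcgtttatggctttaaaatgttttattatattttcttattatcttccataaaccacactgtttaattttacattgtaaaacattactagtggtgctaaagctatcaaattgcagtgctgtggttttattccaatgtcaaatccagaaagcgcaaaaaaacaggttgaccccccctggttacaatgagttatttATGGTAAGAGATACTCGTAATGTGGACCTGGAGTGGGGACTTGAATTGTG
SPBPB2B2.15: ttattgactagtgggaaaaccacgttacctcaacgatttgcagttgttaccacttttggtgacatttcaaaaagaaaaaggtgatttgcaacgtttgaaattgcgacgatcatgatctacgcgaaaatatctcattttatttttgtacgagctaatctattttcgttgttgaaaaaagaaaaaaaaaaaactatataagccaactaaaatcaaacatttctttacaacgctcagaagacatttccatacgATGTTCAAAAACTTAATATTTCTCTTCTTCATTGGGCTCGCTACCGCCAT
SPBPB2B2.16c: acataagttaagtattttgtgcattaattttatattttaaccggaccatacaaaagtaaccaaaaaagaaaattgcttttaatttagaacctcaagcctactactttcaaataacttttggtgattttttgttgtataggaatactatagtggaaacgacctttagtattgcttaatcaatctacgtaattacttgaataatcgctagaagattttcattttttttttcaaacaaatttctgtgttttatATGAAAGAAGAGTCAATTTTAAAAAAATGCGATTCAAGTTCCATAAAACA

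The region before SPBPB2B2.16c is the poorest in G and C of the 3, at 26.0% against 33.0% for SPBPB2B2.14c and 33.3% for SPBPB2B2.15. Its ratio was -0.31 in IRD2 clr3D, -0.10 in clr3D, -0.65 in IRD2 and -0.68 in WT, as a mean of 6 tiles. The start region of SPBPB2B2.14c had 0.33 in IRD2 clr3D, 0.41 in clr3D, 0.094 in IRD2 and 0.021 in WT. At SPBPB2B2.15 these means were -0.039, -0.14, -0.33 and -0.54 in the same order of genotypes. Among the other 3 start regions, that of SPBPB2B2.18 lay above SPBPB2B2.14c on 3 of the 4 arrays, with 0.35 in IRD2 clr3D, 0.44 in clr3D and 0.16 in IRD2, and below it in WT, with -0.070. The motif TGACGT, searched on both strands, occurred in none of the 6 start regions and in 5.91% of 5112 windows of the same kind in the genome. TATAAA, also searched on both strands, occurred 2 times in the start region of SPBPB2B2.16c and in none of the other 5. Both matches lie on the strand opposite to the gene and read TTTATA in the sequence shown. The second of them includes the first base of the start codon. The motif occurred in 48.1% of the 5112 windows.

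Most of these tiles do not belong to this chromosome end alone. Of the 318 tiles, 47 matched 1 place in ASM294v3 and 271 matched more, up to 10, with at least 90% identity over at least 50 bases. The change came 47.6 kb from the end, between gal1 and SPBPB2B2.14c, so that gal1 is the only gene of the 7 read by tiles of 1 place. A total of 270 tiles also matched the left end of chromosome II, 239 of them identically, 213 matched the left end of chromosome I and 177 its right end. SPBPB2B2.16c, annotated as a membrane transporter of the major facilitator family, had all 29 tiles in SPAC750.02c and SPBC1348.05. ftm7, a transmembrane helix protein, had all 9 in ftm2, ftm3 and ftm6, and SPBPB2B2.19c, of the S. pombe 5Tm family, had all 26 in ftm4 and ftm5. Values of the 6 genes other than gal1 are therefore values of a family of copies at several chromosome ends.

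The extract signal was lower in tiles of 1 place than in tiles of more places. Tiles of 1 place had a median log2 extract signal, relative to the array median, of -0.68 in IRD2 clr3D, -0.81 in clr3D, -0.64 in IRD2 and -0.58 in WT. For the 138 tiles of 2 or 3 places it was 0.59, 0.45, 0.78 and 0.78, and for the 133 tiles of 4 or more it was 1.01, 0.79, 1.21 and 1.21. The tiles of 1 place were also poorer in G and C, with a median of 26.7% against 31.7% for the whole stretch, and the part of each in the extract signal was not tested. Within the tiles of 1 place the 9 of gal1, with a mean GC content of 35.9%, had extract means of -0.11 in IRD2 clr3D, -0.066 in clr3D, 0.012 in IRD2 and 0.083 in WT. All 318 tiles were well above background in both channels of each. Their median processed signal lay between 1486 and 1739 in Cy5 and between 1570 and 1954 in Cy3 over the 4 arrays.

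**Figure D1:**
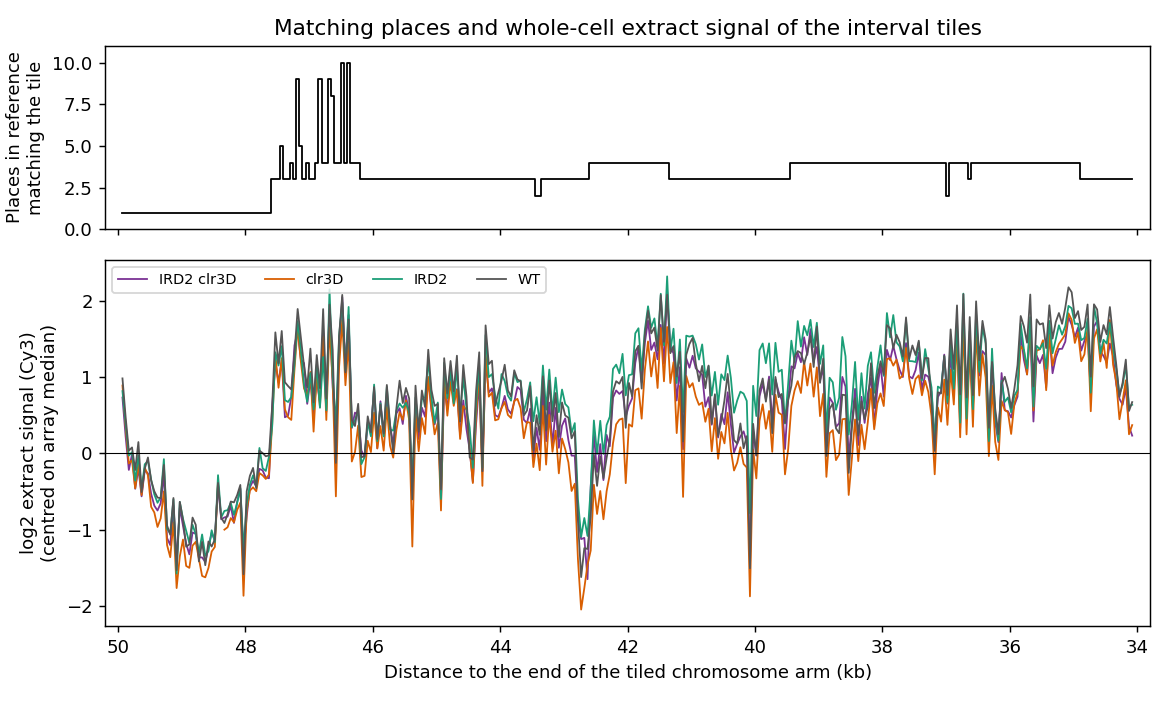
Number of places in the reference that match each tile (upper) and log2 extract signal relative to the array median (lower) against distance to the chromosome end in kb, 1 line per array. The extract signal is below 0 for most tiles of 1 place, left of 47.6 kb, and above 0 for most tiles of 2 or more places.

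In WT cells the ratio of new H3 to extract was lower over the stretch than at the typical probe. In each channel alone the WT signal was above the typical probe, with medians of 0.46 in Cy5 and 0.81 in extract, in DNA that is mostly shared between chromosome ends. The median ratio was 0.016 in IRD2 clr3D (SD 0.23 between tiles), 0.085 in clr3D (SD 0.30), -0.21 in IRD2 (SD 0.22) and -0.43 in WT (SD 0.29). In clr3D 61.2% of tiles were above 0, against 15.1% in WT. For scale, the 119 consecutive runs of 318 tiles on the arms of chromosome II had WT medians from -0.35 to 0.46, so the stretch lay below the lowest of them. In clr3D, IRD2 and IRD2 clr3D its median lay within the range of the arm runs of the same array. The outer part of the same chromosome end was higher on each array, at 0.64 in IRD2 clr3D, 0.66 in clr3D, 0.23 in IRD2 and 0.15 in WT.

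The level was uneven along the stretch, with a similar relief on the 4 arrays. In WT, SPBPB2B2.14c, gal1, SPBPB2B2.18 and SPBPB2B2.16c lay near the array median, with means per tile from -0.064 to -0.015. SPBPB2B2.19c (-0.40), ftm7 (-0.57) and SPBPB2B2.15 (-0.62) lay lower. The ratio was low in most spaces between genes, with -0.46 between gal1 and SPBPB2B2.14c and -0.53 between SPBPB2B2.14c and SPBPB2B2.15. The tile profiles of clr3D and WT had a Pearson r of 0.94 over 317 tiles, and the other 5 pairs of arrays had 0.76 to 0.83; these points share probes, fragments and base composition. The ratio correlated weakly with the GC content of the tile, with r of 0.36 in IRD2 clr3D, 0.27 in clr3D, 0.22 in IRD2 and 0.24 in WT.

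**Figure D2:**
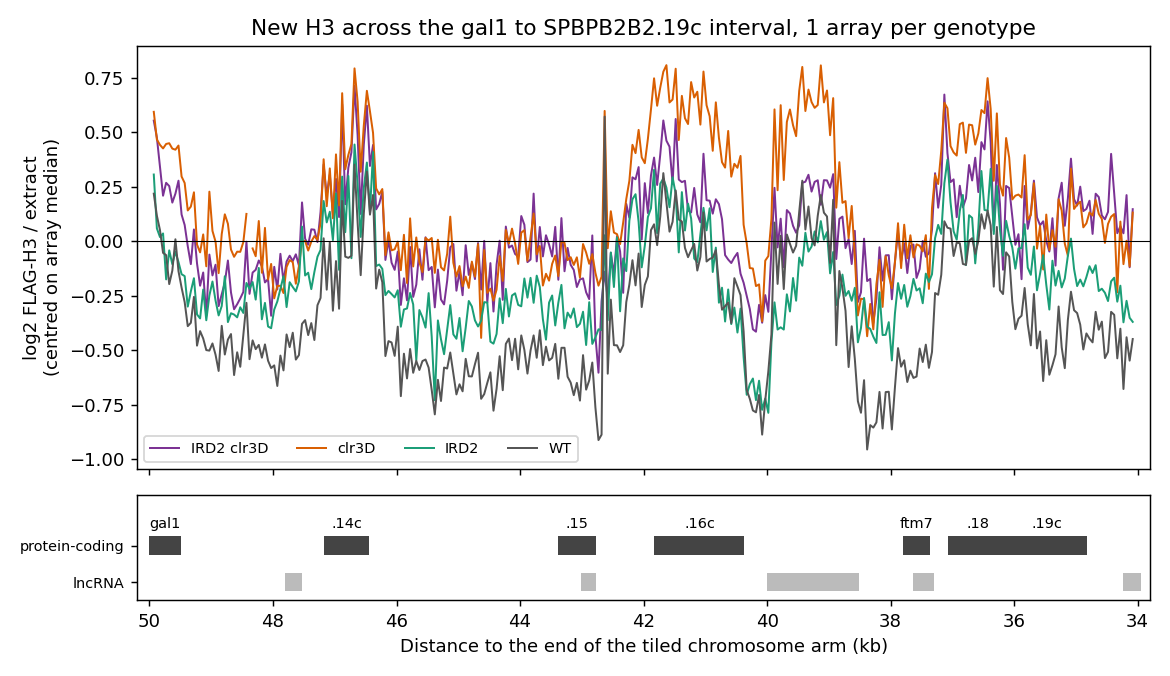
Log2 ratio of FLAG-H3 to extract DNA, relative to the array median, for the 318 tiles against distance to the chromosome end in kb, 1 line per array, with protein-coding genes (dark bars; names without the SPBPB2B2 prefix) and long non-coding RNAs (light bars) below. The clr3D line runs above the WT line at every tile measured on both arrays, with peaks of both over SPBPB2B2.14c, SPBPB2B2.16c and SPBPB2B2.18.

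Loss of clr3 went with a higher ratio along the whole stretch. The difference clr3D minus WT had a median of 0.52 (SD 0.099 between tiles), from 0.026 to 0.82, and was above 0 in all 317 tiles measured on both arrays. It reached 0.3 in 313 tiles, or 98.7%, where 7.27% of all tiles on the array did. The medians of the arm runs lay between -0.23 and 0.22. The difference was more even than the levels themselves, which had an SD of 0.30 in clr3D and 0.29 in WT. It kept a similar size in single-copy and shared DNA, with medians of 0.46 in the 46 tiles of 1 place and 0.52 in the 271 tiles of more places.

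All 7 protein-coding genes were higher in clr3D than in WT by at least 0.3. Of the 886 such genes with at least 3 tiles on the tiled parts of chromosome II, 2.26% were. gal1 averaged 0.46 ± 0.053 in clr3D and -0.020 ± 0.13 in WT (SD between 9 tiles). SPBPB2B2.16c averaged 0.55 ± 0.18 in clr3D and -0.064 ± 0.18 in WT over 29 tiles, and its difference of 0.62 was the highest of the 7. SPBPB2B2.14c, an uncharacterised protein of an S. pombe family with a DUF999 domain, had 0.42 ± 0.21 in clr3D and -0.015 ± 0.20 in WT, and the lowest difference of the 7, 0.44. The other 4 genes lay between these. SPBPB2B2.15, with a Vel1p domain, and ftm7 stayed below the array median in clr3D (-0.080 and -0.035), while SPBPB2B2.18 (0.48), an uncharacterised protein conserved in fungi, and SPBPB2B2.19c (0.13) lay above it. The 6 non-coding RNAs had differences from 0.36 over SPNCRNA.6633 to 0.56 over SPNCRNA.6634. The DNA of SPNCRNA.6634 and SPNCRNA.6636 is shared with SPBPB2B2.15 and ftm7, SPNCRNA.6635 lies within SPNCRNA.448, and the assay has no strand.

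Both channels moved with this result. Cy5 alone was higher by a median of 0.16 in clr3D than in WT, with 17.0% of the tiles at 0.3 or more against 4.45% of all tiles, while the extract signal was lower by a median difference of -0.34, with 61.8% of tiles at -0.3 or less against 6.70% of all tiles. The larger share of the ratio difference is thus in the extract channel. For the 9 tiles of gal1 the order was the opposite, with a Cy5 difference of 0.34 and an extract difference of -0.15. Over all 46 tiles of 1 place the median differences were 0.25 in Cy5 and -0.25 in extract. For SPBPB2B2.15 the Cy5 and extract differences were 0.053 and -0.50. The part of the extract channel in the result was not tested.

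**Figure D3:**
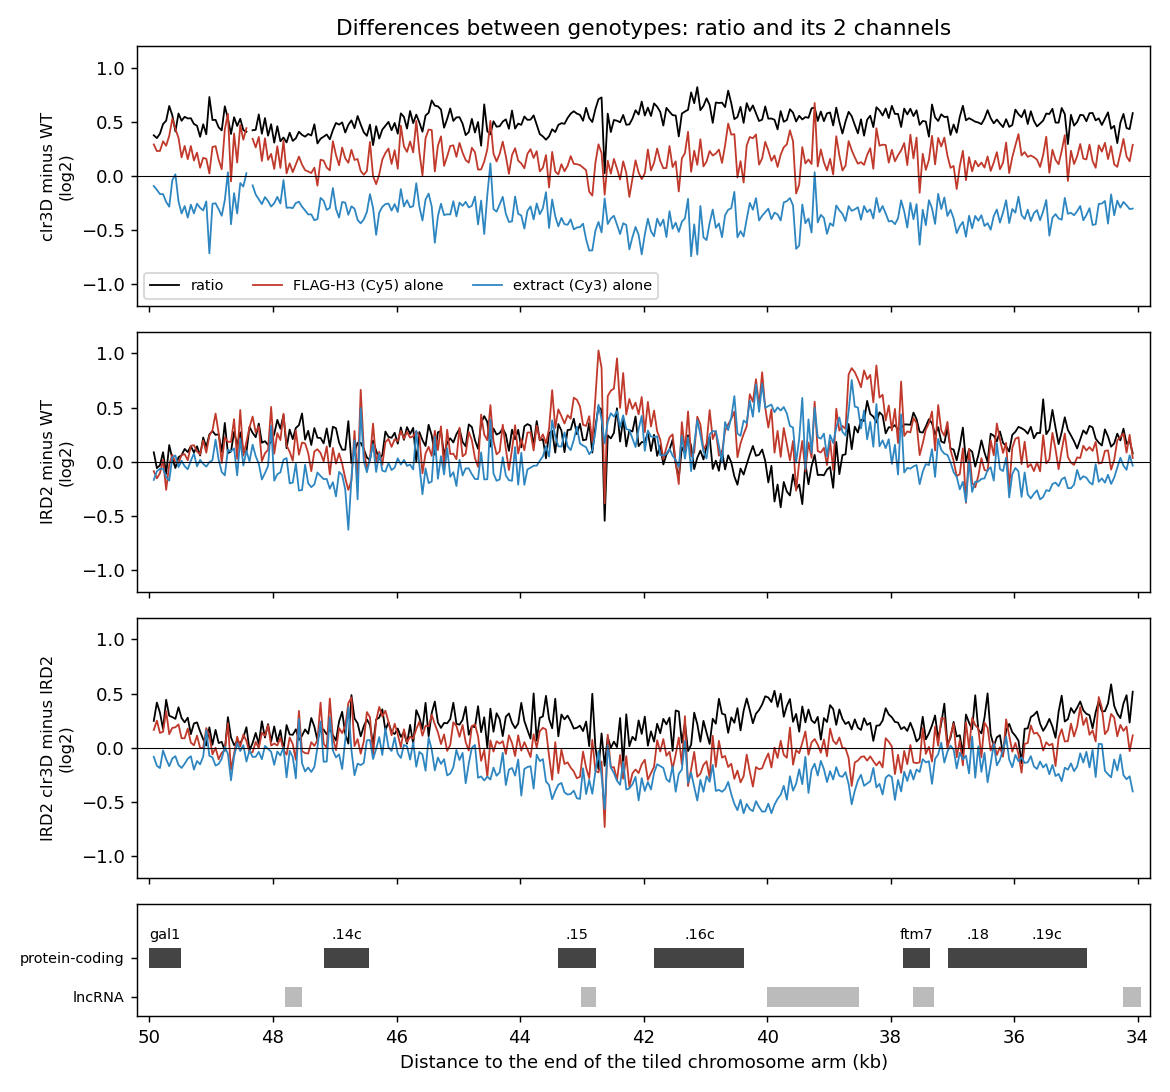
Difference between genotypes in log2 ratio (black), in Cy5 alone (red) and in extract alone (blue) for each tile against distance to the chromosome end in kb. In the clr3D minus WT panel the ratio stays near 0.52 with Cy5 near 0.16 and extract near -0.34. In the IRD2 minus WT panel the ratio dips around 40 kb. The median extract difference is above 0 there and also in the bin from 41.95 to 43.9 kb, which has no dip.

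IRD2 alone went with a smaller and less even difference. Its median ratio was higher than in WT by 0.20 (SD 0.17 between tiles), above 0 in 86.2% of tiles, and at 0.3 or more in 75 of 318 tiles, or 23.6%, against 5.17% of all tiles. At the other end 1.57% of its tiles were at -0.3 or less, against 12.0% of all tiles. The medians of the arm runs reached 0.22, so the value for the stretch was within what runs of this length on the arms showed. All 7 genes were above 0, and 1 of them, ftm7, passed 0.3 with a difference of 0.35, where 0.790% of the 886 genes did. ftm7 averaged -0.22 ± 0.051 in IRD2 and -0.57 ± 0.059 in WT (SD between 9 tiles). gal1 and SPBPB2B2.16c barely differed, by 0.016 and 0.031. The 2-kb bins from 38.0 to 41.9 kb had median differences of 0.058 and -0.026, and the other 6 bins had 0.14 to 0.27. Within this dip lies SPNCRNA.6635, where IRD2 was lower by a mean difference of -0.24 over 8 tiles, with -0.33 in IRD2 and -0.095 in WT. In the dip Cy5 was higher in IRD2 by 0.29 and 0.30 and the extract signal was higher by 0.25 and 0.31 in the 2 bins. Over the whole stretch the median extract difference was 0.00023. A higher extract signal was not confined to the dip. The next bin inward, from 41.95 to 43.9 kb, had an extract difference of 0.17 and a ratio difference of 0.27. Between SPBPB2B2.15 and SPBPB2B2.16c the mean differences were 0.32 in extract and 0.24 in ratio. Over the whole stretch Cy5 alone was higher by a median of 0.19, with 29.6% of tiles at 0.3 or more against 7.55% of all tiles. The part of the extract signal in the dip was not tested.

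By its median ratio over the stretch the double mutant lay between clr3D and IRD2. IRD2 clr3D minus WT had a median of 0.40 (SD 0.16), with 235 tiles, or 73.9%, at 0.3 or more, where 8.73% of all tiles were. The arm runs reached 0.30. The difference passed 0.3 in 6 of 7 genes, against 3.27% of the 886, and SPBPB2B2.16c was the exception at 0.24. SPBPB2B2.19c had the highest, 0.52, with 0.12 ± 0.13 in IRD2 clr3D and -0.40 ± 0.13 in WT (SD between 26 tiles). Again both channels took part, with a median Cy5 difference of 0.23 and a median extract difference of -0.15. In Cy5 alone 33.0% of tiles were at 0.3 or more, against 13.0% of all tiles, and in extract alone 22.0% were at -0.3 or less, against 7.13%. The 3 comparisons with WT share the WT array and are not independent of each other.

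Set against IRD2, the double mutant had a median difference of 0.22 (SD 0.13), above 0 in 96.2% of tiles, and 79 tiles, or 24.8%, were at 0.3 or more against 7.52% of all tiles. The arm runs reached 0.15. All 7 genes were above 0, from 0.15 for ftm7 to 0.31 for gal1, and gal1 was the only one past 0.3, where 1.58% of the 886 genes were. gal1 had 0.31 ± 0.13 in IRD2 clr3D and -0.0042 ± 0.14 in IRD2. In Cy5 alone 3 of the 7 genes were below 0, with -0.16 for SPBPB2B2.15, -0.11 for SPBPB2B2.16c and -0.049 for ftm7. The Cy5 median difference for the stretch was 0.026, and the extract difference was -0.19. The share of tiles at 0.3 or more in Cy5, 4.40%, was below the 6.74% of all tiles, while 26.1% were at -0.3 or less in extract, against 5.66%.

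Set against clr3D, the double mutant was lower at most tiles. The median difference was -0.10 (SD 0.18), and 50 tiles, or 15.8%, were at -0.3 or less, where 8.43% of all tiles were. The medians of the arm runs lay between -0.23 and 0.13 and so include this value. At the outer end the double mutant was higher than clr3D. The mean difference was 0.083 over the 15 tiles beyond SPBPB2B2.19c and 0.12 over the last 10 of them. SPNCRNA.6633, near the inner end, was also higher, by 0.038. The 7 genes had differences from -0.37 to -0.0069, with SPBPB2B2.16c alone past -0.3, where 2.93% of the 886 genes were. SPBPB2B2.16c averaged 0.18 ± 0.20 in IRD2 clr3D and 0.55 ± 0.18 in clr3D (SD between 29 tiles). In Cy5 alone the sign of the median turned, to 0.043, while the extract signal was higher in IRD2 clr3D by 0.19. In Cy5 1.58% of tiles were at -0.3 or less, against 6.50% of all tiles, and in extract 29.0% were at 0.3 or more, against 13.6%.

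**Figure D4:**
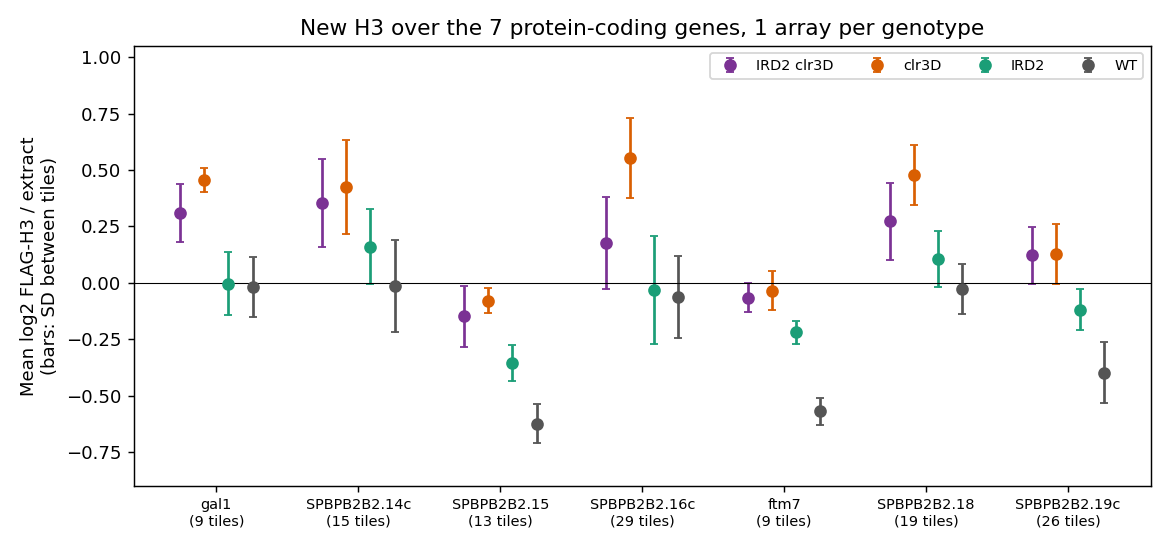
Mean log2 ratio over each of the 7 protein-coding genes on the 4 arrays; bars are the SD between the tiles of the gene, not between replicates. In each gene the WT mean is the lowest and the clr3D mean the highest, and SPBPB2B2.16c has the widest gap between IRD2 clr3D (0.18) and clr3D (0.55).

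The ratio difference with clr3 loss was smaller in the IRD2 background than in WT over each of the 7 genes. In Cy5 alone SPBPB2B2.14c was the only exception, with 0.16 in the IRD2 background and 0.14 in WT. The difference of differences, IRD2 clr3D minus IRD2 less clr3D minus WT, had a median of -0.29 (SD 0.16 between tiles) over the stretch. It ranged from -0.16 for gal1 to -0.41 for SPBPB2B2.16c. It uses each of the 4 arrays once, so it has no replicate check.

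A model with 1 term for clr3 and 1 for IRD2 was fitted with limma to the gene means of the 4 arrays, over 886 protein-coding genes with at least 3 tiles. The clr3 term was higher in all 7 genes with Benjamini-Hochberg adjusted p from 0.00020 to 0.0066, where 2.14% of the 886 genes were called higher and 0.339% lower. Estimates ran from 0.32 ± 0.083 (SE) for SPBPB2B2.14c to 0.41 ± 0.083 for SPBPB2B2.16c, and the median over the 7 genes was 0.38 against -0.0072 over all genes. These calls rest on a common spread of 0.083, which limma gave to all genes because it estimated infinite prior degrees of freedom. With the 1 residual degree of freedom of each gene, the genes' own residual SDs were 0.082 to 0.20, and the common spread replaced them. The model has no interaction term, so its only residual is the departure from additivity, which it takes for noise. That departure was below 0 in all 7 genes. The p-values therefore do not measure an error between replicates. Centring the ratios on the chromosome arms gave a median clr3 estimate of 0.39 over the 7 genes. The spread was then 0.068, and the prior degrees of freedom were 5.88 in place of infinite. With ratios centred on the chromosome arms limma gave 0 calls of 7 (adjusted p from 0.17 to 0.37, with 7 of 7 at an unadjusted p under 0.05), and with Cy5 alone also 0 of 7 (adjusted p from 0.15 to 0.81, with 4 of 7 unadjusted). For the IRD2 term limma called 0 of the 7 genes (adjusted p from 0.32 to 0.95), and 1 of 7, SPBPB2B2.16c, had an unadjusted p under 0.05, with an estimate of -0.17 ± 0.083. Over all genes 0.113% were called higher and 4.85% lower for that term.

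Along the chromosome end the clr3D difference did not stop at the limits of the stretch. In 2-kb bins it was 0.40 to 0.62 within the stretch and 0.31 to 0.83 from there outward to 7.9 kb from the end. It was lower in the bins of the last 7.9 kb, from 0.25 to -0.18. The last 10 tiles within the outer limit had a mean difference of 0.48, against 0.63 for the first 10 tiles beyond it. IRD2 minus WT took another course, with 0.33 at most in the bins outside the stretch and -0.91 and -0.70 in the last 2. The difference of IRD2 clr3D from IRD2 was 0.16 to 0.31 in the bins of the stretch and up to 0.72 at 13.9 to 15.9 kb from the end.

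**Figure D5:**
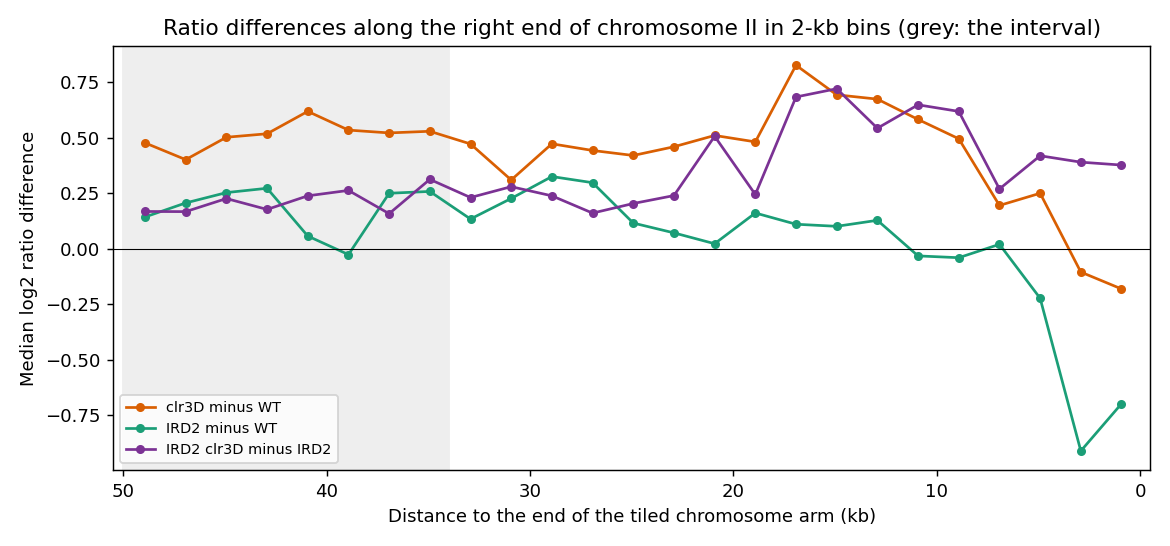
Median difference in log2 ratio in bins of 2 kb along the right end of chromosome II against distance to the end in kb; grey marks the stretch, and points are bins of 39 or 40 tiles. The clr3D minus WT line is near 0.5 through the grey area and falls below 0 in the last 2 bins, while IRD2 minus WT stays below 0.33 throughout.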

How the data were processed

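Per the labels' protocols, chromatin was sheared, immunoprecipitated with anti-FLAG gel, amplified by random-primed PCR and labelled with Cy5, and extract DNA with Cy3. Other protocol text in the labels concerns further ChIPs. The deposited intensity values are Agilent Feature Extraction 12.0.3.1 processed signals, per the file headers, already background-subtracted and dye-normalised. The deposited series table holds the ratio of these processed signals, and the outlier and background flags (values of 0 or 1) are deposited with them. From these, log2(Cy5/Cy3) was computed and centred on the median of each array, with outlier spots left out. Tiles were matched to ASM294v3 with blastn 2.17.0+, and genes were fitted with limma 3.58.1 in R 4.3.3. The fit was also run on simulated additive data with equal noise in all genes. That run cannot check the fit where genes depart from additivity. Genes needed at least 3 tiles, and 0.3 was the log2 difference counted. Each genotype has 1 array, which limits the precision. Every annotated gene with at least 3 tiles in the stretch was eligible to be named, whatever its values; tiles are named only as the highest or lowest of a level or difference. Normexp used median spot signals, with an offset of 50, because the deposited values hold median and not mean spot signals. Members, lists and tests were chosen with earlier results of these data known.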

Additional observations from a re-analysis of the deposited data

Results flagged for a closer look

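The effect of IRD2 had opposite signs in the 2 clr3 backgrounds over the stretch as a whole. IRD2 clr3D minus clr3D had a median of -0.10 and IRD2 minus WT a median of 0.20, with a difference of differences of -0.29. The same opposite signs occurred over all 7 protein-coding genes, with differences of differences of -0.16 (gal1), -0.24 (SPBPB2B2.14c), -0.34 (SPBPB2B2.15), -0.41 (SPBPB2B2.16c), -0.38 (ftm7), -0.34 (SPBPB2B2.18) and -0.29 (SPBPB2B2.19c), and over SPNCRNA.6634 (-0.37) and SPNCRNA.6636 (-0.38), whose tiles overlap those of SPBPB2B2.15 and ftm7. The other 4 non-coding RNAs had the same sign in both backgrounds. SPNCRNA.6633 and SPNCRNA.6637 were above 0 in both, and SPNCRNA.448 and SPNCRNA.6635 below 0 in both. The 8 tiles of SPNCRNA.6635 are among the 30 of SPNCRNA.448, so these 2 are not separate cases. In Cy5 alone the opposite signs were lost over the stretch, with 0.043 in the clr3D background and 0.19 in the WT background, and in 4 of the 7 genes (gal1, SPBPB2B2.14c, SPBPB2B2.15 and ftm7). In some genes 1 of the 2 effects was close to 0, such as -0.0069 in the clr3D background for SPBPB2B2.19c and 0.016 in the WT background for gal1. With 1 array per genotype the difference was not tested.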

How the results depend on the processing

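No paired analysis was possible because each genotype has 1 array. The median differences of the stretch kept their sign under all 11 alternatives, except IRD2 clr3D minus clr3D, which turned to 0.043 with Cy5 alone. Those that moved by more than the SD between tiles were clr3D minus WT, at 0.16 with Cy5 alone and 0.71 with normexp, and IRD2 clr3D minus IRD2, at 0.026 with Cy5 alone. The share of tiles past the fold depends on the fold by construction. At 0.2 it was 49.4% for IRD2 minus WT, 56.0% for IRD2 clr3D minus IRD2 and 30.0% for IRD2 clr3D minus clr3D (downward). At 0.5 it was 57.4% for clr3D minus WT, 0.943% for IRD2 minus WT, 26.1% for IRD2 clr3D minus WT, 1.57% for IRD2 clr3D minus IRD2 and 2.84% for IRD2 clr3D minus clr3D. With Cy5 alone it was 17.0% for clr3D minus WT, 33.0% for IRD2 clr3D minus WT, 4.40% for IRD2 clr3D minus IRD2 and 1.58% for IRD2 clr3D minus clr3D. Calls of the clr3 term were 0 with Cy5 alone and 0 with arm centring, 5 of 7 with loess and 5 of 7 with arrays scaled to one spread, and 1 of the 1 gene that tiles of 1 place leave. With Cy5 alone, 17 of 65 gene values had the other sign. Among those not past the fold, SPBPB2B2.15 turned to -0.16 (IRD2 clr3D minus IRD2) and 0.22 (IRD2 clr3D minus clr3D) and SPNCRNA.6635 to 0.20 (IRD2 minus WT). Among those past it, SPNCRNA.6634 turned to -0.015 (clr3D minus WT) and SPNCRNA.6635 to -0.043 (IRD2 clr3D minus IRD2). SPNCRNA.448 turned to -0.019 (IRD2 clr3D minus IRD2) and 0.052 (IRD2 clr3D minus clr3D). Apart from the gene values, the median WT level of the stretch was 0.46 in Cy5 alone, against -0.43 as a ratio. The cause of these changes was not tested, apart from those the fold or the number of genes sets. With arm centring the clr3 calls were lost at a median estimate of 0.39, against 0.38 in the main setting. The spread was 0.068 against 0.083, and the prior degrees of freedom were 5.88 against infinite. Of 585 gene values under alternatives, 490 moved by less than the SD between tiles. Some alternatives, also among the 11 for the medians, could hardly change a value and are no check. All tiles of the stretch were well above background, hardly any were outliers, and the deposited ratios are the same ratios. Leaving out the edges of the stretch cannot change a gene that lies further in.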

Other observations

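A single tile between SPBPB2B2.15 and SPBPB2B2.16c, at array position chr2:4498901-4498960, stood apart from its neighbours. Its ratio was -0.14 in IRD2 clr3D, 0.60 in clr3D, 0.028 in IRD2 and 0.57 in WT, the highest WT value of the stretch. It also gave the lowest tile value for clr3D minus WT (0.026), IRD2 minus WT (-0.54), IRD2 clr3D minus WT (-0.71) and IRD2 clr3D minus clr3D (-0.74). Its signals were dim relative to the array medians, with log2 Cy5 of -1.77 in IRD2 clr3D, -0.83 in clr3D, -1.04 in IRD2 and -0.66 in WT. Another tile, at chr2:4503151-4503210 between SPBPB2B2.16c and ftm7, had -0.18 in IRD2 clr3D, -0.43 in clr3D, -0.39 in IRD2 and -0.95 in WT, the lowest WT value.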
